A study of Homo sapiens with 21 samples.

Results

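The genes described here encode the core of the human splicing machinery and its best-known regulators, and they were selected by symbol alone. The rule took every SRSF (serine/arginine-rich, or SR) gene, every HNRNP (heterogeneous nuclear ribonucleoprotein) gene, the SF3A and SF3B subunits of the U2 small nuclear ribonucleoprotein (snRNP), the PRPF pre-mRNA processing factors, the SNRP genes for Sm and other snRNP proteins, the U2AF genes and the LUC7L family. It found 184 transcripts of 68 genes among the 21537 transcripts of 11851 genes that appear in at least 1 of the 6 deposited differential expression tables. By family, 22 of these genes were HNRNP genes, 12 SRSF, 12 SNRP, 8 PRPF, 7 SF3A or SF3B, 4 U2AF and 3 LUC7L.

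The spliceosome is built from snRNPs, each an RNA bound by a ring of Sm proteins, which recognise the splice sites and the branch point of an intron and remove it. U1 reads the 5′ splice site, U2AF and the U2 snRNP with SF3A and SF3B settle on the 3′ end and the branch point, and the PRPF proteins belong to the later complexes. SR proteins generally bind exons and favour their inclusion, whereas many hnRNP proteins favour skipping, and the balance between them shapes tissue-specific splicing in heart muscle. Many SR and hnRNP genes limit their own output by splicing in an exon, or keeping an intron, that carries an early stop codon, so that the RNA is destroyed by nonsense-mediated decay.

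PGP1, a human induced pluripotent stem cell (iPSC) line, was differentiated by timed activation and inhibition of Wnt signalling through mesoderm (M), cardiac mesoderm (CMes) and cardiac progenitors (CP) to cardiomyocytes (CM), with 3 wild-type (WT) libraries at each of the 5 stages. CMs lacking UBE2B, the ubiquitin-conjugating enzyme that acts with RNF20 and RNF40 on histone H2B, came from 2 lines, labelled UBE2B-/-1 and UBE2B-/-2, with 3 libraries each, which makes 21 libraries of poly-A RNA. The 2 lines came from separate CRISPR experiments in the same parental line, replicates were plates started at different times, and the CMs were enriched with lactate after wells began to beat. Each table compares a stage with the one before it, or a UBE2B-/- line with WT CMs, and holds only transcripts with a Sleuth q-value up to 0.05.

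Values for single libraries were not in the tables used here. Group levels below are therefore geometric means of 3 libraries in estimated counts, recovered from each table's mean and effect. Changes are log2 values of the later or mutant group over the other, with the standard error (SE) of the Sleuth model. A transcript was called when its q was up to 0.05 and its effect was at least 0.585 on the natural-log scale, which is 1.79-fold. This limit is the log2 of 1.5 set against natural-log effects. At the natural log of 1.5, which is 1.5-fold, called members numbered 15, 28, 60 and 76 in the 4 steps and 23 and 27 in lines 1 and 2, in place of 11, 18, 34, 53, 16 and 18. A member described as short of the fold limit is short of 1.79-fold. Sleuth reads its statistic against a normal distribution. With a t distribution on the 4 residual degrees of freedom of each step (6 in the UBE2B-/- fit) and adjustment over all tested transcripts, 1 of the 53 members called from CP to CM was still called and 0 in the other comparisons, so the calls below hold under the model used in the study and not under that stricter one. Spread between libraries enters only through these SEs, and sequencing depth per library is unknown. The number of member transcripts tested is also unknown, so the share of all tested transcripts that were called is given beside each member count, and the split between lower and higher is compared with that of all listed transcripts.

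Cardiomyocyte and pluripotency markers moved as the labels imply in the last 2 steps. Of 8 cardiomyocyte markers, 7 were called higher in CP over CMes and 8 in CM over CP, and 5 of 6 pluripotency markers were called lower in both steps. The first 2 steps were more mixed. From iPSC to M, 1 pluripotency and 1 cardiomyocyte marker were called lower. From M to CMes, 2 pluripotency markers were called lower and 1 higher, and 4 cardiomyocyte markers were called higher. Markers of other cell types moved too. From CMes to CP, 3 of 5 endoderm markers were called higher and 1 lower. Of 6 fibroblast markers 4 were called higher, and of 4 smooth muscle markers 2. From CP to CM, 4 of 5 endoderm and 2 of 4 endothelial markers were called lower, and 4 of 4 smooth muscle markers higher. Of 6 fibroblast markers, 4 had a transcript called lower and 2 higher. The part of these cell types in the splicing-gene changes was not tested. In the UBE2B-/- comparison, 1 UBE2B transcript was listed, ENST00000499038.2, at -1.91 ± 0.53 in line 1, and none for line 2. The mutant CMs differed in cell-type markers: 6 of 8 cardiomyocyte markers in line 1 and 7 of 8 in line 2 were called lower, and 2 of 6 fibroblast markers in line 1 and 5 of 6 in line 2 were called higher. In these bulk libraries, fewer cells of a type and less RNA per cell cannot be told apart.

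Sequence is shown for 2 groups of member RNAs, SNRPN because its transcripts moved in opposite directions, and SR transcripts because an inserted stretch with a stop defines their class. SNRPN, on chromosome 15 and expressed from the paternal allele, encodes SmN, the tissue-restricted relative of the Sm protein SmB. Its transcripts SNRPN-202, SNRPN-203, SNRPN-208 and SNRPN-212 in GENCODE 44 share the same 720-base coding sequence and stop codon, but they begin at different places. SNRPN-202 begins at base 24954987 of hg38 on the + strand and SNRPN-208 at 24955005. SNRPN-203 begins far upstream at 24856551, SNRPN-206, a transcript with no annotated coding sequence, at 24856601, and SNRPN-212 at 24823725. The 100 bases of genomic sequence just before the first annotated start of each cluster are shown, because the clusters of starts and not the protein separate these transcripts. They lie outside the RNAs, and at the most distal cluster they precede an annotated start upstream of that of SNRPN-212.
Downstream start, chr15:24954835-24954934, + strand: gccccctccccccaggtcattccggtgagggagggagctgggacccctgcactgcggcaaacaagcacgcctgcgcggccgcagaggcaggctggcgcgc
Upstream start, chr15:24856451-24856550, + strand: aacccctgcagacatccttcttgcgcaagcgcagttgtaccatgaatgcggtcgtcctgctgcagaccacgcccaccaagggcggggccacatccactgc
Most distal start, chr15:24823537-24823636, + strand: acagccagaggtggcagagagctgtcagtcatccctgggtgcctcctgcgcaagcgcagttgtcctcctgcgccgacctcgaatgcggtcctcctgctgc
The stretch before the downstream start was 74.0% G or C with 8 CG steps, against 62.0% and 6 at the upstream start and 65.0% and 6 at the most distal one.

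The second group is the SR transcripts with an early stop. SRSF6-202 inserts an exon on chromosome 20 into the SRSF6 message, and SRSF7-208 keeps an intron on chromosome 2. Both belong to the nonsense-mediated decay class of GENCODE 44. Each sequence below runs from the inserted stretch to the first stop codon in frame, with the stop in capitals, and for SRSF7 it opens with the last 30 bases of the preceding exon.
SRSF6-202, chr20:43459153-43459304, + strand: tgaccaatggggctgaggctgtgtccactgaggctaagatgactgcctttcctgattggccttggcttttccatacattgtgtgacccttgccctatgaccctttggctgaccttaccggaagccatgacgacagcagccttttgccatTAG
SRSF7-208, chr2:38749516-38749558, - strand: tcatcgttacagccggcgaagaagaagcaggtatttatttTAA

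Member transcripts fell mainly in the last 2 steps of differentiation. From CMes to CP, 81 of 89 listed members were lower, which is 91.0% against 48.2% of all 7519 listed transcripts. From CP to CM, 76 of 92 were lower, 82.6% against 45.4% of all 12982. The median log2 change of listed members was -0.67 and then -0.80, while that of all listed transcripts was 0.40 and 0.63. The 2 earlier steps listed fewer members. From iPSC to M, 17 of 25 were lower, 68.0% against 53.6% of all 3315 listed transcripts. From M to CMes, 12 of 35 were lower, 34.3% against 44.7% of all 6541.

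**Figure D1:**
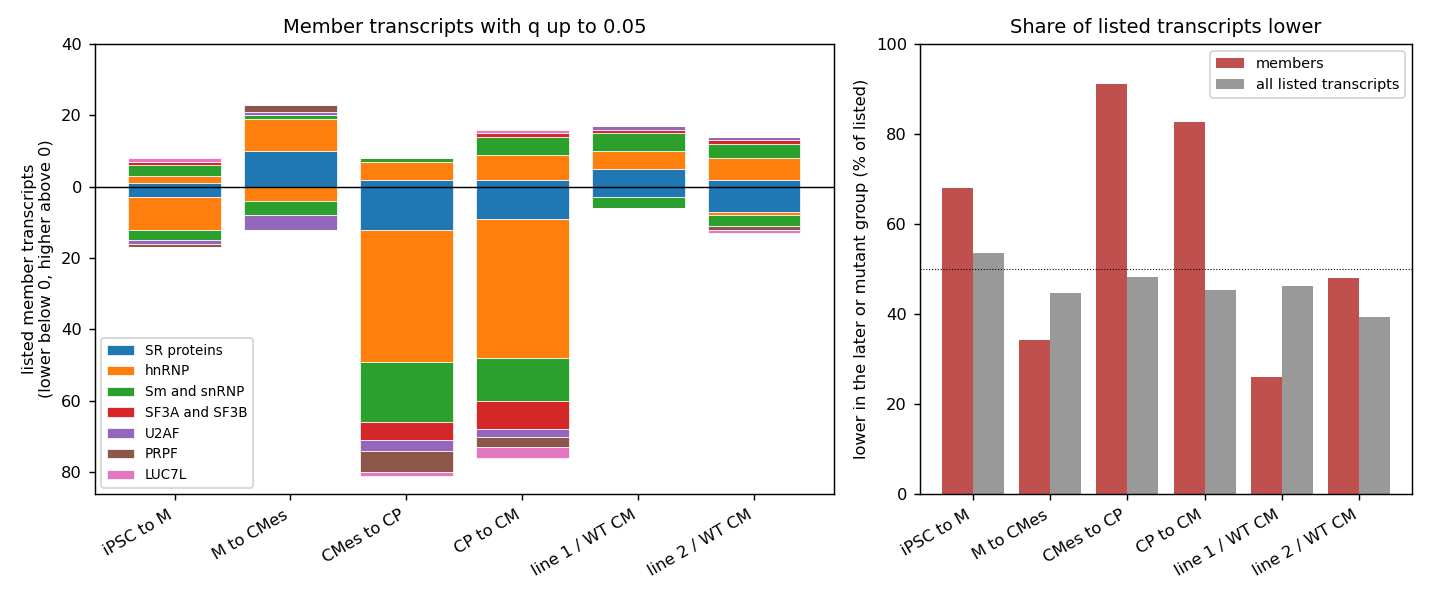
Left, number of listed member transcripts (q up to 0.05) that were lower (below 0) or higher (above 0) in each of the 6 comparisons, stacked by gene family. Right, percent of listed transcripts that were lower, for members (red) and for all listed transcripts (grey), where the CMes to CP pair stands at 91.0% against 48.2%.

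From iPSC to M, 7 members were called lower and 4 higher, where 1.62% of all 68446 tested transcripts were called lower and 1.24% higher. SRSF3, a small SR protein of proliferating cells, gave the change with the smallest q, although it fell short of the fold limit: SRSF3-208 went from 3156 to 1775 estimated counts, -0.83 ± 0.11 (q = 9.6e-12). SRSF3-202 was called lower at -0.97 ± 0.22. PRPF39-201, a U1 snRNP-associated factor, was called lower at -1.20 ± 0.20, and HNRNPC-210, from the gene of a protein that coats nascent RNA, at -1.06 ± 0.20. Among the higher transcripts, SNRPA-201, for the A protein of the U1 snRNP, stood at 0.49 ± 0.11 and SF3A2-201 at 0.39 ± 0.11, both under the fold limit. HNRNPUL1-207 was called higher at 0.87 ± 0.25, as were the decay-class transcripts SNRPB-203 at 1.96 ± 0.55 and HNRNPDL-203 at 1.22 ± 0.32. HNRNPU-202, a retained-intron RNA of the scaffold-binding hnRNP U, was called lower at -1.08 ± 0.32, and HNRNPM-208 at -0.85 ± 0.28. HNRNPA2B1-201 had group means of 399 to 1.68 estimated counts, with an SE so wide (2.15 on the log2 scale) that its fold is not given.

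SR transcripts moved in 1 direction from M to CMes. All 10 listed SR transcripts, from 8 genes, were higher, and 5 of them were called. Of all 6541 listed transcripts in this step, 3617 were higher. In total 7 members were called lower and 11 higher, against 2.65% and 3.81% of all 70285 transcripts tested. SRSF6-202, the decay-class RNA with the inserted exon shown above, went from 836 to 1473 estimated counts, 0.82 ± 0.13 (q = 6.9e-08), and SRSF3-208 from 1899 to 3030.5, 0.67 ± 0.12 (q = 6.7e-07). Called SR members were SRSF11-201 at 0.96 ± 0.20, SRSF2-202 at 1.02 ± 0.31, SRSF5-205 at 0.89 ± 0.26 and the retained-intron transcripts SRSF9-202 and SRSF9-204, the latter at 1.44 ± 0.30. SRSF2 is the SR protein known as SC35, the classical marker of nuclear speckles.

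SNRPN transcripts moved in both directions in the same step. SNRPN-202, the most abundant of them, had been listed lower from iPSC to M at -0.74 ± 0.12 and was not listed here. SNRPN-210, which starts at the downstream cluster, was called lower at -1.38 ± 0.19 (q = 1.4e-10), with 630.3 to 242 estimated counts, while SNRPN-203 from the upstream start was called higher at 1.40 ± 0.30, with 167 to 441. HNRNPA2B1 also had called transcripts in both directions, with HNRNPA2B1-209 at -1.40 ± 0.30 and the retained-intron transcript HNRNPA2B1-204 at 0.94 ± 0.32. HNRNPDL-202, of the decay class, was called lower at -2.05 ± 0.57. PRPF39-201, lower in M, was called higher in CMes at 0.95 ± 0.31, with 209 to 406 estimated counts. HNRNPH1-206, a retained-intron RNA, stood at 0.89 ± 0.22.

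The decline from CMes to CP ran through every family. Of 48 listed member genes, 41 had listed transcripts only lower, 2 only higher and 5 in both directions. In all, 29 transcripts were called lower and 5 higher, where 2.63% and 3.8% of 71328 tested were called. All 5 SF3A and SF3B transcripts, all 3 U2AF, all 6 PRPF and 17 of 18 SNRP transcripts were lower. Most of these changes were modest: only 1 PRPF transcript and 5 SNRP transcripts passed the fold limit downward, and none of SF3A, SF3B or U2AF did.

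hnRNP transcripts gave the largest changes relative to their errors in this step. HNRNPM-201, a regulator of exon skipping, went from 9293 to 3913 estimated counts, -1.25 ± 0.10 (q = 4.3e-31). HNRNPA2B1-202, one of the most abundant member RNAs, went from 26876 to 12604, -1.09 ± 0.13, and its decay-class partner HNRNPA2B1-203 from 2436 to 926, -1.40 ± 0.12. Each of the pair has 1059 annotated coding bases and the same stop codon. HNRNPD, also known as AUF1 and a binder of AU-rich RNA, had HNRNPD-208 at -0.88 ± 0.10 and HNRNPD-203 at -1.15 ± 0.14. Its relative HNRNPDL-206 was called lower at -1.26 ± 0.16, while the decay-class HNRNPDL-202 was called higher at 1.80 ± 0.54. HNRNPC-210 stood at -1.85 ± 0.27, and another HNRNPC transcript, ENST00000449098.5, was listed near 0 in CMes and higher in CP.

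Transcripts of Sm and other snRNP genes were lower in the same step. SNRPA1-201, which encodes the A′ protein of the U2 snRNP, was called lower at -0.91 ± 0.11 with 1583 to 841 estimated counts. SNRPF-201 stood at -0.82 ± 0.10, SNRPG-201 at -0.75 ± 0.11 and SNRPD1-204 at -0.78 ± 0.12, RNAs of 3 Sm ring genes listed lower but short of the fold limit. Of the U2 snRNP, SF3A3-201 stood at -0.65 ± 0.10 and SF3B4-201 at -0.52 ± 0.10. PRPF19-201, the ubiquitin ligase of the active spliceosome, stood at -0.61 ± 0.10.

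SRSF3 and SRSF2 transcripts that had been higher in CMes were lower again in CP. SRSF3-208 went from 3049.7 to 1669 estimated counts, -0.87 ± 0.10, and SRSF2-202, also called, from 3965 to 1978. SRSF7-202 went from 2150.3 to 1155, -0.90 ± 0.17. SRSF1, the founding SR protein, had the decay-class SRSF1-206 at -0.88 ± 0.14 and SRSF1-205 at -1.02 ± 0.19. In the other direction, SRSF8-201, from a retrogene copy of SRSF2, was listed higher at 0.64 ± 0.13 (q = 2e-05).

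From CP to CM, 42 members were called lower and 11 higher, where 6.99% and 8.25% of all 69937 tested were called. SRSF4-201 went from 2331 to 1066 estimated counts, -1.13 ± 0.13 (q = 1.5e-15), and SRSF9-201 from 2220.3 to 897, -1.31 ± 0.31. HNRNPA1, an abundant repressor of exon inclusion, was called lower in all 5 of its listed transcripts, with HNRNPA1-201 from 22601 to 7523, -1.59 ± 0.21, and HNRNPA1-205 of the decay class from 10551 to 3458, -1.61 ± 0.23. HNRNPA1 has many processed pseudogenes, so its reads may be shared with copies. HNRNPH3-202 stood at -1.16 ± 0.15, HNRNPC-204 at -1.14 ± 0.17 and HNRNPA3-202 at -0.95 ± 0.14. Of the snRNP transcripts, SNRPA-201 went from 1533 to 556, -1.46 ± 0.22.

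Several members rose in CMs against this trend. SRSF6-201 went from 2632 to 4846 estimated counts, 0.88 ± 0.14 (q = 4.5e-09), and SNRPD3-201, an Sm protein, from 1221 to 2228, 0.87 ± 0.13 (q = 1.9e-09). Listed higher but short of the fold limit were HNRNPH2-201 at 0.79 ± 0.13, SF3B5-201 at 0.63 ± 0.14, SRSF8-201 at 0.61 ± 0.15 and LUC7L2-202 at 0.54 ± 0.17. Within the LUC7L family of U1 snRNP-associated proteins, LUC7L2 thus stood opposite to LUC7L3-202, called lower at -1.29 ± 0.40, and to the decay-class LUC7L-207 at -1.67 ± 0.39. HNRNPC and HNRNPA2B1 had called transcripts in both directions, with HNRNPC-210 at 1.17 ± 0.38 and HNRNPA2B1-208 at 1.81 ± 0.39 on the higher side. HNRNPL-215 was called higher at 1.17 ± 0.44, and so was the pseudogene transcript HNRNPA1P33-201 at 2.39 ± 0.75.

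**Figure D2:**
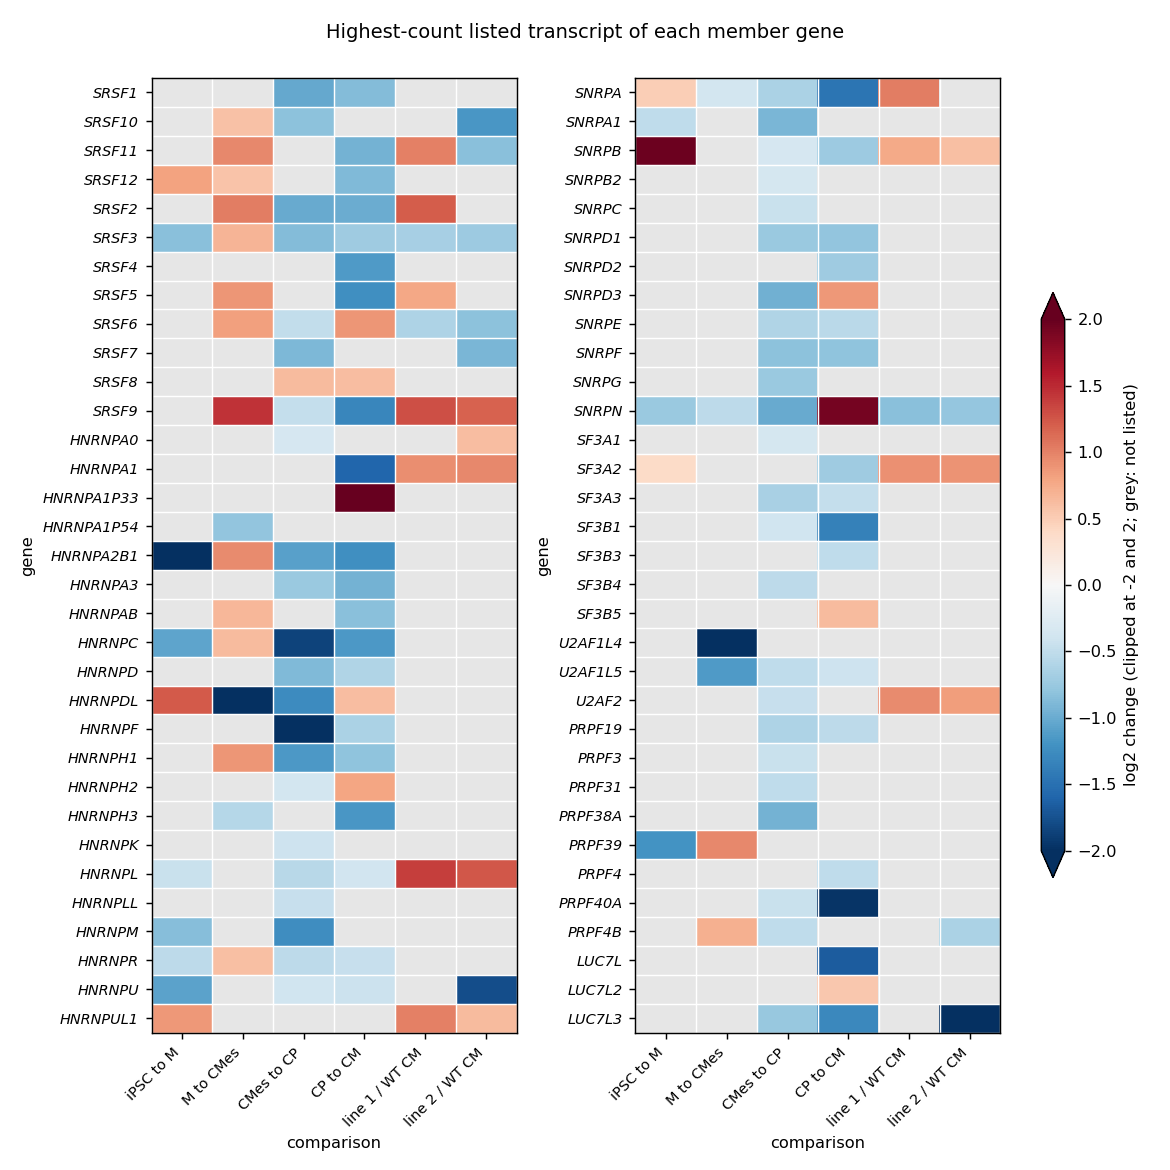
Log2 change in each comparison (columns) for the listed transcript with the most estimated counts of each member gene (rows, grouped by family), clipped at -2 and 2. Grey marks genes with no listed transcript, transcripts near 0 in a group are left out, and the columns for the last 2 steps are mostly blue.

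Other splicing genes, from a list of 51 spliceosome components outside the rule, were lower as well. From CMes to CP, 22 of them were listed, 20 only lower and 0 only higher, and 6 were called lower and 1 higher. Over all transcripts, 48.2% of those listed in this step were lower. Of all tested, 2.63% were called lower and 3.8% higher. From CP to CM, 23 were listed, with 18 only lower and 5 only higher, and 11 were called lower and 2 higher. Over all transcripts, 45.4% of those listed from CP to CM were lower. Of all tested, 6.99% were called lower and 8.25% higher. Of 7 other splicing regulators, all 7 had a transcript called lower from CP to CM, among them PTBP1, a repressor of muscle and neuronal exons, at -1.65 ± 0.30. Only 5 of the 7 had listed transcripts in the lower direction alone. TRA2A and TIAL1 also had transcripts listed higher, at 0.80 ± 0.29 and 0.59 ± 0.16. Among 7 kinases of SR proteins, SRPK1 stood at -1.16 ± 0.25 and CLK1 at 1.36 ± 0.25 in that step. Among 15 exon junction and decay factors, 3 were called lower and 4 higher.

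Cell-cycle genes moved with these steps. Of 12 proliferation genes, 12 were listed lower and 0 higher in CP over CMes, and 11 and 0 in CM over CP, with medians of their listed transcripts of -0.72 and -2.27. MKI67 stood at -1.22 ± 0.17 and -3.01 ± 0.81. The part of proliferation in the decline of the splicing genes was not tested.

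SNRPN went the other way within a single gene. To place stages on 1 scale, the tables were joined by the constant shift between the values of a group that 2 tables share. SNRPN-202 had 8170.1 estimated counts in iPSCs, 4890.5 in M, 4140.5 in CMes, 2062 in CP and 470.0 in CM. SNRPN-203 had 149 in M, 393 in CMes, 1001 in CP and 3781 in CM. The downstream-start RNA was thus the more abundant of the pair until CP and the upstream-start RNA in CM.

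The step from CP to CM was the largest listed for both. SNRPN-203 rose by 1.92 ± 0.15 (q = 1.9e-35), the smallest q of any member in that table, and SNRPN-202 was called lower at -2.13 ± 0.32 (q = 1.3e-09). SNRPN-206 and SNRPN-212, also from upstream starts, were called higher at 1.61 ± 0.23 and 1.71 ± 0.23. Of the downstream-start transcripts, only SNRPN-202 and SNRPN-207 were listed from CP to CM, and they moved in opposite directions. SNRPN-207, with 2 additional exons and a 732-base coding sequence, was called lower from CMes to CP at -1.49 ± 0.36 and then higher at 1.36 ± 0.34. SNRPN-208 and SNRPN-210 were not listed from CP to CM. On the joined scale SNRPN-208 had 830 estimated counts in WT CM, more than the 470.0 of SNRPN-202. Per kilobase of transcript, SNRPN-202 and SNRPN-203 stood at 1405 and 624 in CP, and at 320.2 and 2356 in CM. SNRPN-202 and SNRPN-203 share the internal exons from base 24962114 on. They differ in their first exons and in the length of the last one, 317 bases in SNRPN-202 and 176 in SNRPN-203, so reads at either end can separate them and these values do not measure the use of a start directly.

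**Figure D3:**
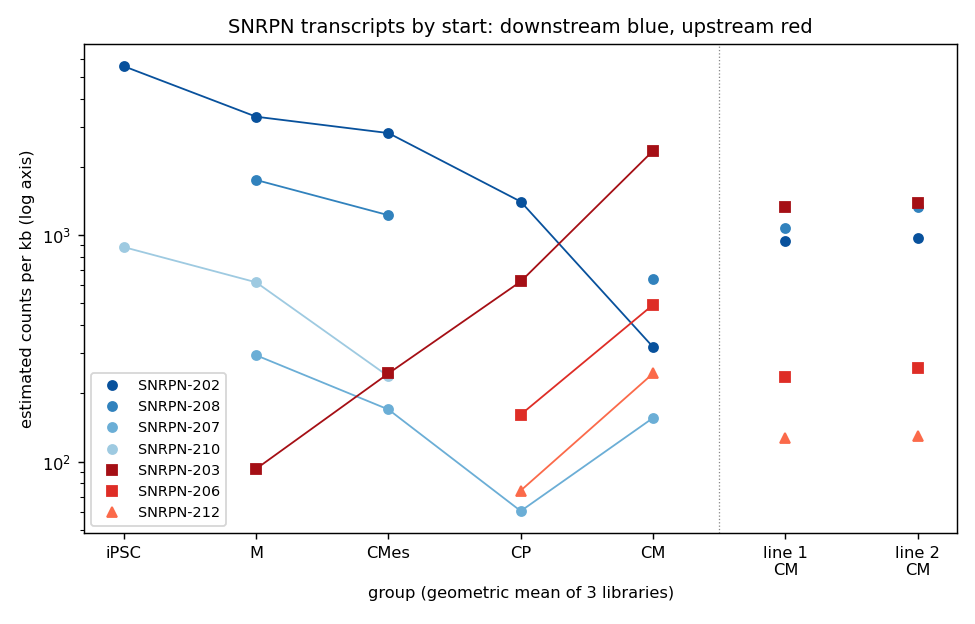
Estimated counts per kilobase (log axis, geometric mean of 3 libraries) of SNRPN transcripts across the WT stages and in CMs of both UBE2B-/- lines, with downstream-start transcripts in blue and upstream-start transcripts in red. SNRPN-202 falls to 320.2 in WT CMs while SNRPN-203 rises to 2356, and in the mutant lines both lie nearer to each other.

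SRSF3 and its decay-class RNA ran in parallel. On the joined scale, the coding SRSF3-208 had 3009 estimated counts in iPSCs, 1692 in M, 2701 in CMes and 1478 in CP. SRSF3-204, of the decay class, had 1241, 741, 1099.6 and 684 in the same stages, and 418 in CM. Both were lower in M than in iPSCs or CMes. The decay-class RNA changed by -0.74 ± 0.15, 0.57 ± 0.16, -0.68 ± 0.16 and -0.71 ± 0.20 in the 4 steps, never past the fold limit. SRSF6-201 and SRSF6-202 were never listed in the same comparison, so their changes in a step could not be compared. In CP, where both had a level, SRSF6-201 had 2632 estimated counts and SRSF6-202 had 936. Per kilobase these were 604.6 and 557.1.

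**Figure D4:**
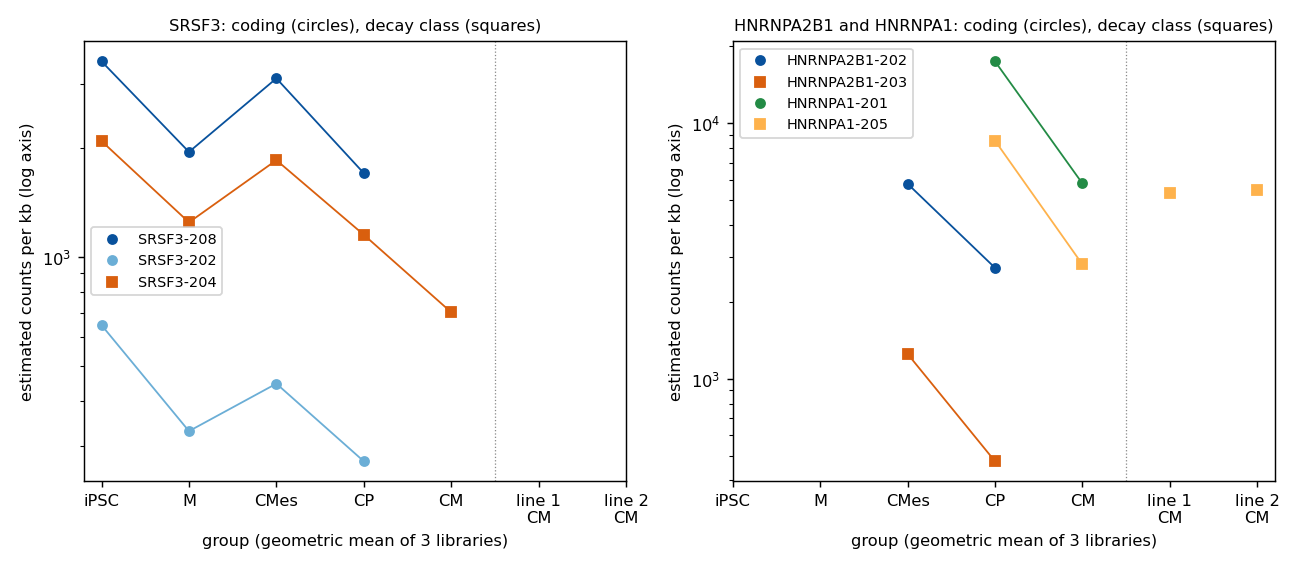
Estimated counts per kilobase (log axis, geometric mean of 3 libraries) of coding transcripts (circles) and decay-class transcripts (squares) of SRSF3 (left) and of HNRNPA2B1 and HNRNPA1 (right) in the groups where a table gave a value. SRSF3-208 and SRSF3-204 both dip in M and stand higher again in CMes.

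Decay-class transcripts made up 10.1% of listed members against 3.35% of all listed transcripts in CP over CMes, and 8.70% against 5.04% in CM over CP. Retained-intron members were 12 lower and 0 higher from CP to CM, while all listed retained-intron transcripts were 573 lower and 319 higher. From M to CMes they were 2 lower and 5 higher, against 92 and 307.

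Promoters of the member genes were searched because so many of the genes fell together. RefSeq promoters, 250 bases before to 50 after a start in GRCh38.p14, were at hand for 56 of the 68 genes. CCGGAAG, the core recognised by ETS factors, was present on either strand in 18 of these 56 genes, or 32.1%, against 16.7% of 15345 protein-coding genes and 12.2% of all 27305 genes. Among the genes listed only lower from CMes to CP, 13 of 35 with a promoter held it. TATAAA was present in 12.5% of member genes and 14.0% of all genes, CCAAT in 51.8% and 39.7%, and CACGTG in 14.3% and 8.77%. The palindromic NRF1 motif was found in 0 of the 56, against 1.52% of all genes. The match is shown in capitals, with its flanks, for 3 genes called lower from CMes to CP.
HNRNPD, chr4:82374151-82374190, - strand: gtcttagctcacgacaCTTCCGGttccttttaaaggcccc
SNRPA1, chr15:101295338-101295377, - strand: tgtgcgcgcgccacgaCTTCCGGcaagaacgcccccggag
SNRPB, chr20:2470807-2470846, - strand: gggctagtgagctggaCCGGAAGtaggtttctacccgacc
In HNRNPD and SNRPA1 the motif lies on the opposite strand, 183 and 113 bases before the RefSeq start. In SNRPB it lies 41 bases before the start at 2470789, which is that of SNRPB-201, a transcript not called from CMes to CP. SNRPB-202, the SNRPB transcript called lower in that step, starts at 2470853, so the match lies downstream of its start. These matches are letters in a window and no binding was measured.

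Loss of UBE2B was compared with WT CMs in each line, and both comparisons use the same 3 WT libraries, which also serve the step from CP to CM. Counts in these comparisons are on the scale of their own 9-library fit. Line 1 had 3 members called lower and 13 higher, where 1.72% and 2.18% of 65457 tested were called. Line 2 had 8 lower and 10 higher, where 1.53% and 2.46% were called. In both lines together 3 members were called lower and 9 higher, from 9 genes, against 0.909% and 1.52% of all tested. One of the 9 is a second identifier of HNRNPL-201 with identical values, which leaves 8 distinct RNAs. At a q limit of 0.01, 5 of these 12 remained called in both lines.

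SR protein genes responded in both directions. SRSF9-201, which encodes a small SR protein also called SRp30c, had estimated counts of 1036 in WT CMs, 2539.6 in line 1 and 2337 in line 2, a change of 1.29 ± 0.25 in line 1 and 1.17 ± 0.25 in line 2 (q = 6.9e-05 and 0.00043). SRSF11-204 was called higher at 1.01 ± 0.29 in line 1 and 0.92 ± 0.29 in line 2. The retained-intron transcript SRSF3-205 was called lower, with 258 in WT CMs, 54.3 in line 1 and 55.8 in line 2, a change of -2.24 ± 0.55 in line 1 and -2.20 ± 0.55 in line 2. SRSF6-201 was listed lower at -0.62 ± 0.19 in line 1 and -0.81 ± 0.19 in line 2, short in both lines of the log2 change of 0.844 at the fold limit. SRSF7-208, the decay-class RNA with the retained intron shown above, was called lower in line 2 at -0.92 ± 0.23 and was not listed for line 1.

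Among core spliceosome members, SF3A2 and SNRPB were called higher in both lines. SF3A2-201, the SF3A subunit that joins the U2 snRNP at the branch point, had 1479 in WT CMs, 2799 in line 1 and 2757 in line 2, a change of 0.92 ± 0.19 in line 1 and 0.90 ± 0.19 in line 2. SNRPB encodes SmB, and its transcript SNRPB-202 was called higher at 1.46 ± 0.40 in line 1 and 1.30 ± 0.40 in line 2, while the more abundant SNRPB-201 was listed higher at 0.75 ± 0.19 in line 1 and 0.60 ± 0.19 in line 2 and passed the fold limit in neither line. SNRPA-201 was called higher in line 1 at 1.02 ± 0.24. For line 2 its value was not listed, and the joint fit of both lines with the WT level gave 0.68. A U2AF2 transcript, ENST00000590551.1, was listed higher in both lines and called in line 1 only, at 0.94 and 0.83.

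Among hnRNP transcripts, HNRNPA1-205, HNRNPUL1-208 and HNRNPL-201 were called higher in both lines. HNRNPA1-205 had 3991 in WT CMs, 7601 in line 1 and 7799 in line 2, a change of 0.93 ± 0.25 in line 1 and 0.97 ± 0.25 in line 2, and HNRNPUL1-208 stood at 1.01 ± 0.27 in line 1 and 1.25 ± 0.27 in line 2. Both are of the decay class, and no transcript of either gene annotated as protein coding was called in both lines. HNRNPA1-205 nevertheless has 960 annotated coding bases and ends at the same stop codon as HNRNPA1-201. Its class therefore does not rest on an earlier stop than that of HNRNPA1-201. HNRNPL-201 stood at 1.38 ± 0.39 in line 1 and 1.24 ± 0.39 in line 2.

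SNRPN transcripts again moved in opposite directions. SNRPN-202 had 542 in WT CMs, 1601 in line 1 and 1642 in line 2, a change of 1.56 ± 0.38 in line 1 and 1.60 ± 0.38 in line 2, and SNRPN-208 from the same cluster was listed higher at 0.75 ± 0.22 in line 1 and 1.05 ± 0.22 in line 2, past the fold limit in line 2 only. SNRPN-203 had 4364 in WT CMs, 2454 in line 1 and 2563 in line 2, a change of -0.83 ± 0.19 in line 1 and -0.77 ± 0.19 in line 2, listed lower but short of the fold limit in both. SNRPN-206 and SNRPN-212 were called lower in both lines, SNRPN-206 at -1.06 ± 0.26 in line 1 and -0.92 ± 0.26 in line 2 and SNRPN-212 at -0.94 ± 0.26 in line 1 and -0.92 ± 0.26 in line 2. On the joined scale, SNRPN-202 and SNRPN-203 stood at 945 and 1325 estimated counts per kilobase in line 1 and at 969 and 1384 in line 2, against 320.2 and 2356 in WT CMs and 1405 and 624 in CP. Mutant values of both RNAs lay between those of WT CM and CP.

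**Figure D5:**
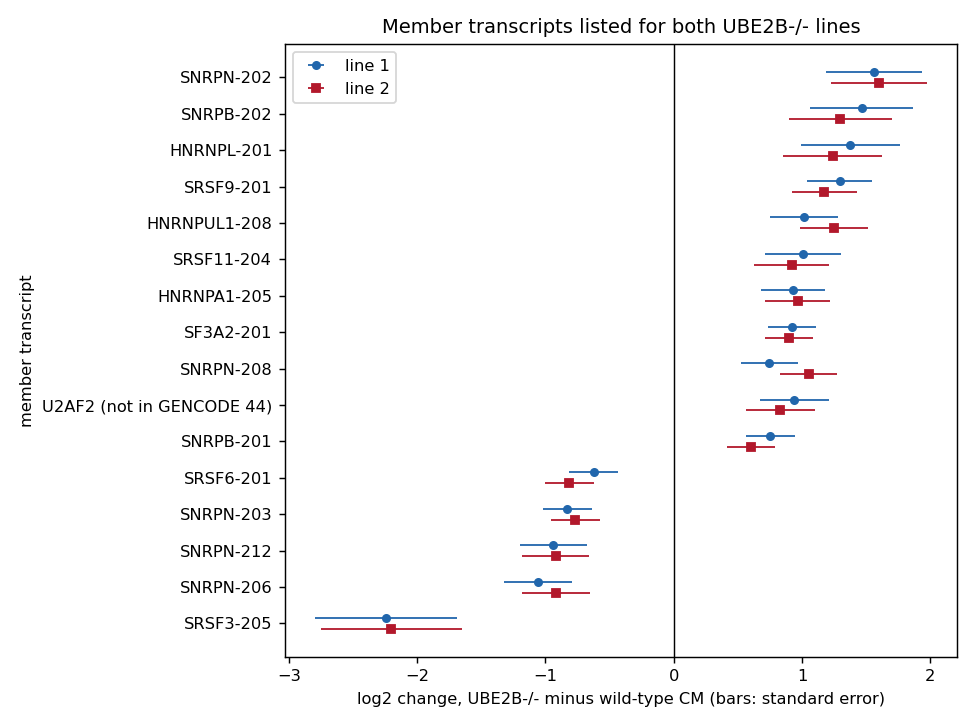
Log2 change of UBE2B-/- CMs over WT CMs for each distinct member transcript listed for both lines, with line 1 as circles, line 2 as squares and bars for the SE. The lines lie within 1 SE bar of each other for most transcripts, and the 5 lower transcripts are SRSF6-201, SRSF3-205 and the upstream-start SNRPN RNAs.

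The difference between the lines was tested for the 17 member transcripts listed for both, which had each passed in both lines. Of these, 0 differed at an unadjusted p under 0.05, the lowest p from the SEs of the Sleuth fit being 0.170 for SNRPN-208, and 0 of 1992 transcripts listed for both lines differed at q up to 0.05, with 29 at an unadjusted p under 0.05. Another 6 members were listed for line 1 only and 10 for line 2 only, and for these the difference was not tested. Besides SNRPA-201, those called in line 1 were the decay-class SRSF2-208 at 1.21 ± 0.37 and SRSF2-204, higher with an SE of 1.47 on the log2 scale. Besides SRSF7-208, those called in line 2 were SRSF10-205 at -1.16 ± 0.36, HNRNPU-204 at -1.78 ± 0.55, the decay-class LUC7L3-212 at -4.63 ± 1.41 and the retained-intron SRSF2-209, which was called lower with a group mean near 0. Outside the rule, PTBP1 was called higher in both lines, at 1.43 ± 0.26 and 1.32 ± 0.26. Of the 51 other spliceosome genes, 3 were called lower and 2 higher in line 1 and 1 and 1 in line 2. Of all tested transcripts, 1.72% were called lower and 2.18% higher in line 1, and 1.53% and 2.46% in line 2. Beside these results stand the lower cardiomyocyte markers and higher fibroblast markers of the mutant CMs, for example TNNT2 at -1.48 ± 0.42 and -1.77 ± 0.42 and COL3A1 at 3.51 ± 0.79 and 4.81 ± 0.79, and their part in the splicing-gene changes was not tested. Of 4 smooth muscle markers 1 was called lower in each line, of 4 endothelial markers 0 and 1 were called higher, of 5 endoderm markers 1 and 0, and of 6 cardiac progenitor markers 1 and 1. Of 12 proliferation genes, 0 were listed for either line. The 10 members higher in both lines with an annotated sequence had a median transcript GC content of 53.7%, against 47.2% for the 5 lower, and over all transcripts listed for both lines these medians were 59.3% and 42.4%.

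SNRPN-202, SNRPN-203 and SNRPA-201 each appeared in 5 of the 6 tables, the most of any member. SNRPA-201 had 2183 estimated counts in iPSCs, 3069 in M, 2373 in CMes, 1533 in CP and 556 in CM on the joined scale, with a peak in M. SF3A2-201 had 2550.4 in M, 2088 in CP, 1282 in WT CM, 2425 in line 1 and 2389 in line 2. SRSF9-201 had 3082 in CMes, 2220.4 in CP, 897 in WT CM, 2201 in line 1 and 2025 in line 2. For SF3A2 the mutant levels stood above that of CP, and for SRSF9 close to it, with no test of either gap. SNRPB-201, in 4 tables, had 3241 in CMes, 2578 in CP, 1559.8 in WT CM, 2629.7 in line 1 and 2366 in line 2. HNRNPR-202, listed in all 4 steps, had 1418, 989, 1503, 1047 and 762 from iPSC to CM, the same dip in M that SRSF3 showed.

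Some members need care. Of the 291 member values in the tables, 12 had a group mean under 1 estimated count, among them transcripts of U2AF1, U2AF1L4, LUC7L and HNRNPM, and no fold is given for them. Identical values under a second identifier made up 9 of the 184 transcripts, all of HNRNPR, HNRNPL or HNRNPH1, where reads are split between copies of 1 sequence. U2AF1L5 is a near-copy of U2AF1 in the annotation, so its values are uncertain, among them -1.15 ± 0.18 for ENST00000619610.2 from CP to CM. Of the 78 protein-coding genes that the rule selects in GENCODE 44, 64 were listed in at least 1 table, and the 14 others, among them PRPF8, PRPF6 and SF3B2, were listed in none.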

How the data were processed

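Poly-A RNA from 21 libraries, 3 in each of 7 groups, was sequenced; groups were taken from the sample labels. Per the study's methods the authors trimmed reads, quantified transcripts of hg38 with Kallisto and tested them with the Wald test of Sleuth. The deposited tables hold p-values and q-values, effects, their standard errors and mean levels on a natural log scale, and variance components of the model (score) by the authors. They are the authors' own comparisons, and were used because they are the only values given; no column of per-sample values was used. Tables list transcripts with q up to 0.05 only.

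From these, effects were divided by ln 2 and group means solved from mean and effect (UBE2B-/- lines: 1 fit of 9 libraries), less the authors' 0.5 added to counts. The identities behind these steps were checked on every listed transcript. How many transcripts each test covered follows from q, rank and p. Stages were joined by the median shift of transcripts over 20 estimated counts in shared groups. The mean of both lines and their difference used the same variance, with Benjamini-Hochberg adjustment. Symbols are as deposited; classes, positions and lengths are from GENCODE 44, which held 170 of 184 members, and promoters from RefSeq. Calculations used Python 3.11.15, pandas 2.3.3 and SciPy 1.17.1 and were tested on simulated data. Separate plates are the replicates, so p-values measure spread between plates of 1 parental line.

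The members and gene lists were chosen with earlier results of these data known. Named transcripts were up to 10 called members per direction and comparison with the largest effect over error, genes with calls in both directions, members called in both lines, members in at least 4 tables, and the relatives SNRPB and SNRPN, the LUC7L genes, and HNRNPA1 and HNRNPA2B1; others named were chosen after their values were seen. One sequence is not reported here.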

Additional observations from a re-analysis of the deposited data

How the results depend on the processing

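Counts of called members, lower and higher together, were recomputed under other limits. At a q limit of 0.01 the count fell from 11 to 5 from iPSC to M, from 18 to 10 from M to CMes, from 16 to 7 in line 1, from 18 to 9 in line 2 and from 12 to 5 in both lines. With the effect limit at ln 1.5 it rose from 18 to 28 from M to CMes and from 34 to 60 from CMes to CP. Without an effect limit it was 25, 35, 89 and 92 in the 4 steps. With a t distribution on 4 residual degrees of freedom (6 for the UBE2B-/- fit) in place of Sleuth's normal one, and adjustment over all tested, it was 0 in the first 3 steps, 1 from CP to CM, where 144 transcripts in all were called lower and 417 higher, and 0 for line 1, line 2 and both lines. At an unadjusted p under 0.05 by that t distribution, 41 of the 53 calls from CP to CM passed, and all 11, 18, 34, 16 and 18 of the other comparisons. Leaving out means under 10 estimated counts and, chosen after seeing the data, counting identical values once or leaving out transcripts near 0, kept each count within 1.5 times. Protein-coding transcripts were 63.9% of listed members and 57.3% of called ones. Taking each gene's transcript with the smallest p in place of the one with the most counts reversed HNRNPA2B1 from M to CMes (to -1.40) and from CP to CM (to 1.81) and SNRPN in line 2 (to 1.05).

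No paired analysis was possible because the tables hold no values for single libraries, and for the same reason leaving out each replicate was not run. Depth and another scaling of libraries could not be examined.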
